A study of Mus musculus with 13 samples.

Results

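The 8 genes described here serve glucose uptake and lactose synthesis in the mammary secretory cell, with Gpi1 at the fork to glycolysis. They are the transporters Slc2a1 and Slc5a1, hexokinases Hk1 and Hk2, isomerase Gpi1, pyrophosphorylase Ugp2, Golgi transporter Slc35a2 and galactosyltransferase B4galt1. They were listed by symbol for their place in this pathway, and all 8 were present in both deposited tables, which list 23951 genes. RNA sequencing had been done on whole flash-frozen mammary glands of mice, with 13 libraries in 4 groups. Day 7 of lactation was represented by 3 wildtype control females and 3 females with a conditional knockout of Jak1. Day 2 of involution was represented by 3 wildtype controls and 4 knockouts. The sources used here do not give the Cre driver, the strain or the age. JAK1 is a tyrosine kinase that passes cytokine signals to STAT transcription factors, and the study asked what it contributes to inflammatory signalling and to remodelling of the gland.

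Lactose is the main sugar of mouse milk and draws water into it. Glucose enters the alveolar cell through GLUT1, the product of Slc2a1, and is phosphorylated by hexokinases. Part of it is converted to UDP-glucose and then to UDP-galactose, and SLC35A2 carries the UDP-galactose into the Golgi. There B4GALT1, together with the milk protein alpha-lactalbumin (Lalba), forms lactose synthase and joins galactose to free glucose. When suckling stops, milk accumulates, secretion is shut down and the alveoli regress.

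B4galt1 and Slc2a1 stood lower at involution than at lactation in both genotypes, and their promoters are shown for that reason. The 250 bases before the RefSeq start of each gene are printed from 5′ to 3′ on the gene's strand, in build GRCm38.p6. Capitals mark TTCNNNGAA, the STAT recognition pattern, and GGGCGG, the SP1 box, on either strand (CCGCCC is the box on the opposite strand).

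B4galt1, chr4:40853985-40854234, minus strand: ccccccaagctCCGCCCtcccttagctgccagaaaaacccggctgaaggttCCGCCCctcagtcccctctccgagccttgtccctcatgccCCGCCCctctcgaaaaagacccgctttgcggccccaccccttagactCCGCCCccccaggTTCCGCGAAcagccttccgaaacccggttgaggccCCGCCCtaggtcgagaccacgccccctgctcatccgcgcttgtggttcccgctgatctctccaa

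Slc2a1, chr4:119108495-119108744, plus strand: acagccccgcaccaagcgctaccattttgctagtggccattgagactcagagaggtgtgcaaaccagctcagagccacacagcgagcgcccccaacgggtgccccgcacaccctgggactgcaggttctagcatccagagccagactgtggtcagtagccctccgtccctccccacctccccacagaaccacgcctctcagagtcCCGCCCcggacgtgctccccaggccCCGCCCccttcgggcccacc

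The B4galt1 window held 1 match to TTCNNNGAA and 5 to GGGCGG, and the Slc2a1 window none and 2. Among the 8 genes, for which RefSeq lists 10 starts (2 each for Hk1 and Ugp2), B4galt1 was the 1 gene with a TTCNNNGAA match. Of 32851 promoter windows of the same length, 7.02% held TTCNNNGAA and 32.7% held GGGCGG. The E-box CACGTG, found in 6.02% of windows, was present in that of Slc5a1 and in none of the other members' windows. GGGCGG was also present in the windows of Hk2, Gpi1 and Ugp2. Both B4galt1 and Slc2a1 windows had a GC content of 66.4%. A match is a string of letters and not a measured binding site, and mammary B4galt1 is known to use more than 1 start, of which the table lists 1.

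The expression values are FPKM as deposited, which are scaled for transcript length and for the size of the library, so that levels of different genes can be set side by side. The number of fragments is unknown here. Estimated from the spacing of low values, it ran from 0.723 to 1.29 times the mean of the table at lactation and from 0.485 to 1.502 times at involution. Jak1 did not separate the genotypes. It stood at 6.18 to 14.2 FPKM in controls and 9.51 to 11.2 FPKM in knockouts at lactation, and at 23.97 to 24.6 and 17.3 to 26.3 FPKM at involution. Its log2 differences were -0.0043 ± 0.35 at lactation and -0.12 ± 0.17 at involution (SE, limma adjusted p = 0.999 and 0.989). The FPKM is given per gene for the whole gland, without exons or cell types. The loss of Jak1 was therefore not seen or checked here, which limits every comparison of the genotypes. Control M44175 (M with the mouse's number) stood apart at lactation, with a summed FPKM of 871630 against 312976 to 421592 in the other 5 libraries, and with the highest adipocyte marker sum of that stage. The largest part of that sum is Fabp4, which reached 1556 FPKM in controls and 1120 FPKM in knockouts. The adipocyte markers did not all go that way: Plin1, Lipe and Slc2a4 were lower in all lactating controls, M44175 among them, than in all lactating knockouts. All 10 luminal epithelial markers looked at were detected in each group, with a summed level of 616 to 839 FPKM at lactation and 1627 to 2949 FPKM at involution. On this deposited scale the median gene also stood higher at involution, by 1.06 in controls and 1.11 in knockouts in log2(FPKM + 1). The 2 sums are therefore not a measure of more luminal RNA at involution. In whole tissue, fewer cells of a type and less RNA per cell cannot be told apart.

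At lactation B4galt1 was the most abundant of the 8 transcripts by far. Its mean was 266 ± 27.5 FPKM in controls and 228 ± 35.004 FPKM in knockouts (SD, n = 3 and 3), and in both groups its lowest library lay above the highest library of the next gene, Ugp2. In controls Ugp2 (50.2 ± 16.5 FPKM), Slc2a1 (28.4 ± 6.72 FPKM) and Gpi1 (27.3 ± 6.78 FPKM) followed, each overlapping the next in line. Slc35a2 (12.2 ± 3.01 FPKM) and Slc5a1 (12.1 ± 1.16 FPKM) were level with each other, and the hexokinases Hk1 (5.001 ± 2.80 FPKM) and Hk2 (4.41 ± 2.26 FPKM) came last and overlapped. The knockouts had the same order of means. At involution the order was another: in controls Gpi1 (97.6 ± 20.1 FPKM) overlapped B4galt1 (108 ± 20.2 FPKM), and in knockouts Gpi1, Ugp2 and B4galt1 overlapped in this order, at 99.5 ± 31.0, 93.7 ± 18.1 and 72.0 ± 12.7 FPKM (n = 4).

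**Figure D1:**
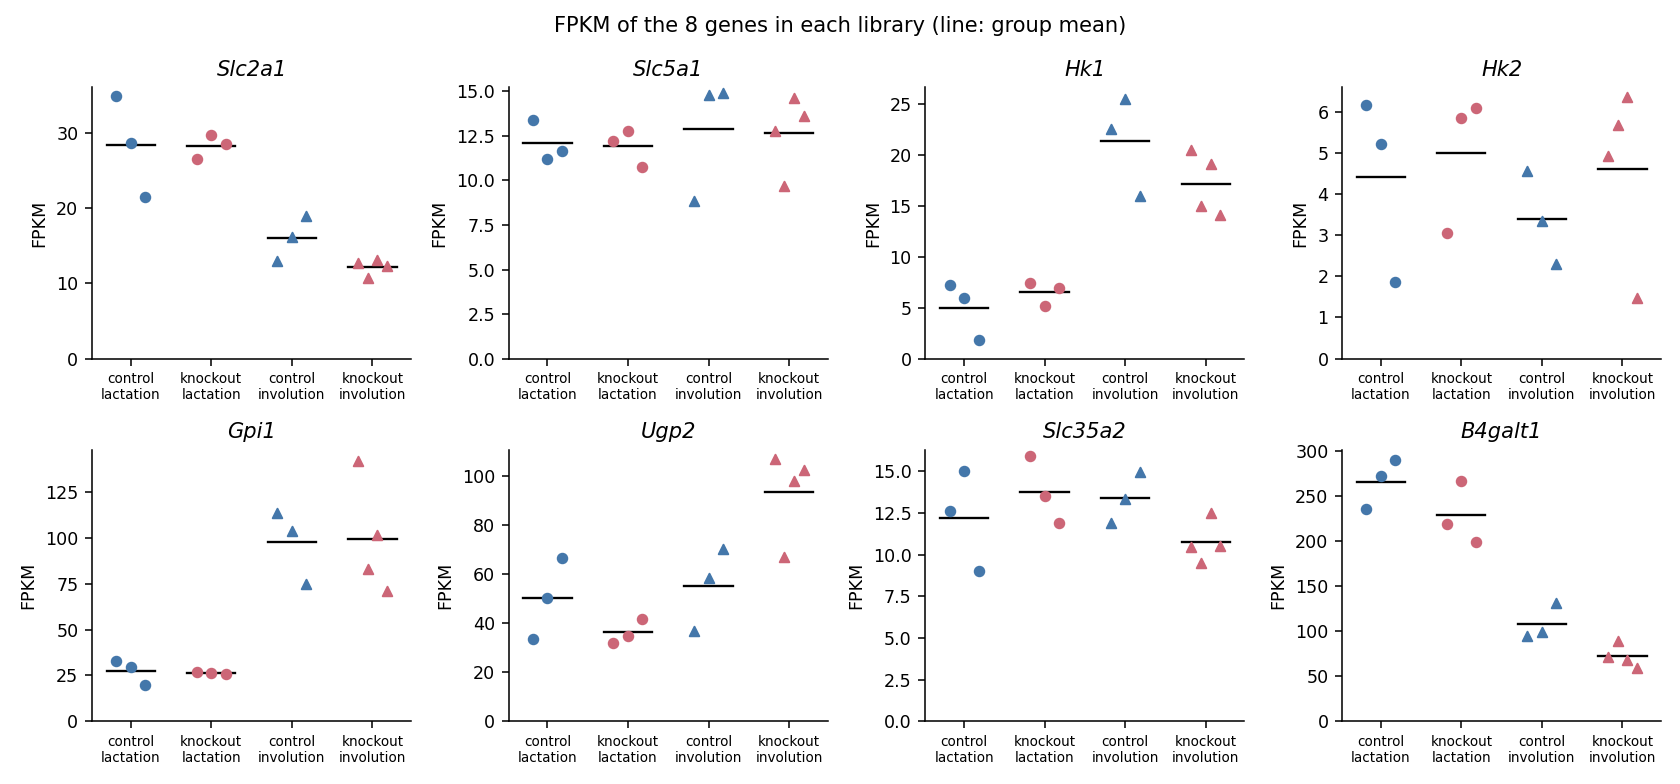
FPKM of each of the 8 genes (y axis, linear, from 0) in the 13 libraries, by group on the x axis; blue points are controls, red points knockouts, circles lactation, triangles involution, and the line is the group mean. On this deposited scale B4galt1 and Slc2a1 are lower in all involution libraries than in all lactation libraries and Gpi1 and Hk1 are higher, of which the Hk1 difference (and that of Gpi1 in controls) becomes an overlap with 1 set of factors over 13 libraries; at involution all 4 knockouts lie under the 3 controls for B4galt1 alone.

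Slc2a1 encodes GLUT1, the facilitative glucose transporter of the secretory cell. At lactation it stood at 34.9 (M42186), 28.7 (M43768) and 21.5 FPKM (M44175) in controls and at 26.6 (M44174), 29.7 (M42734) and 28.5 FPKM (M43767) in knockouts. The knockouts lay inside the range of the controls, with a log2 difference of 0.08 ± 0.27 (SE, limma adjusted p = 0.998). At involution its levels were 13.03 (M44448), 16.2 (M43768) and 19.0 FPKM (M43914) in controls and at 12.7 (M43196), 10.7 (M43767), 13.2 (M44176) and 12.4 FPKM (M44440) in knockouts. Knockout M44176 was the 1 knockout that reached into the control range, just above control M44448. The log2 difference was -0.33 ± 0.15 and did not pass the threshold of 0.05 (limma adjusted p = 0.779, unadjusted p = 0.0622).

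Slc5a1 encodes SGLT1, which takes up glucose or galactose together with sodium. It stood at 13.4, 11.2 and 11.6 FPKM in lactating controls (M42186, M43768, M44175) and at 12.2, 12.8 and 10.8 FPKM in lactating knockouts (M44174, M42734, M43767). Its involution levels were 8.85, 14.8 and 14.9 FPKM in controls (M44448, M43768, M43914) and at 12.8, 9.67, 14.6 and 13.6 FPKM in knockouts (M43196, M43767, M44176, M44440). Groups overlapped at both stages, with log2 differences of 0.04 ± 0.20 and 0.02 ± 0.21 (limma adjusted p = 0.998 for each), whose signs turned under some alternative settings.

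Hexokinases trap glucose in the cell as glucose 6-phosphate, HK1 being the widespread form and HK2 the form of insulin-responsive tissues. In the same order of libraries, Hk1 stood at 7.18, 5.98 and 1.84 FPKM in lactating controls and 7.45, 5.17 and 6.98 FPKM in lactating knockouts. The low value was that of control M44175, and without it the log2 difference of 0.50 ± 0.42 became -0.01. At involution Hk1 stood at 22.6, 25.4 and 16.0 FPKM in controls and at 20.5, 14.96, 19.1 and 14.1 FPKM in knockouts, with overlap and a log2 difference of -0.27 ± 0.21 (limma adjusted p = 0.946). Hk2 stood at 6.16, 5.21 and 1.86 FPKM in lactating controls, again lowest in M44175, and at 3.04, 5.84 and 6.09 FPKM in lactating knockouts. At involution Hk2 stood at 4.56, 3.35 and 2.30 FPKM in controls and at 4.91, 5.68, 6.35 and 1.48 FPKM in knockouts. Of these knockouts 3 lay above all controls and M44440 below them, and the log2 difference was 0.29 ± 0.39 (limma adjusted p = 0.982). Without M44440 that difference was 0.64.

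Gpi1 interconverts glucose 6-phosphate and fructose 6-phosphate and so stands at the fork between glycolysis and the sugar nucleotides. It stood at 32.6, 29.6 and 19.7 FPKM in lactating controls and at 27.1, 26.5 and 25.6 FPKM in lactating knockouts. At involution it stood at 114, 104 and 75.1 FPKM in controls and at 142, 83.2, 102 and 71.0 FPKM in knockouts, the latter ranging on both sides of the controls. Log2 differences were 0.05 ± 0.28 and 0.03 ± 0.27 (limma adjusted p = 0.998 for each), and their signs turned under some alternative settings.

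Ugp2 encodes UDP-glucose pyrophosphorylase, which makes the UDP-glucose from which UDP-galactose, and also glycogen, are formed. At lactation it stood at 33.7, 50.1 and 66.7 FPKM in controls and at 32.0, 35.01 and 41.9 FPKM in knockouts (log2 difference -0.35 ± 0.27, limma adjusted p = 0.998; -0.56 without control M42186 and -0.17 without control M44175). In the involuting gland it stood at 36.7 (M44448), 58.3 (M43768) and 70.4 FPKM (M43914) in controls and at 107 (M43196), 67.1 (M43767), 98.0 (M44176) and 103 FPKM (M44440) in knockouts. All knockouts except M43767 lay above the 3 controls. This was the widest difference among the 8 genes, a log2 difference of 0.81 ± 0.26, or 1.75-fold, and it did not pass over all genes (limma adjusted p = 0.568, unadjusted p = 0.0138). Leaving out single libraries gave 0.56 (without control M44448, where the unadjusted p was 0.0532 in limma) to 0.99 (without control M43914). Markers of adipocytes, a cell type that also makes glycogen, were on the same side: their 10 genes, none at 0 in a whole group, summed to 4280 to 8534 FPKM in controls and 4651 to 16859 FPKM in knockouts at involution. All 10 had a positive log2 difference (median 0.67, or 0.37 without knockout M44176) and none passed. Fibroblast markers were positive in 8 of 8 (median 0.90, or 0.72 without M44176) and summed to 220 to 478 FPKM in controls and 409 to 948 FPKM in knockouts. Basal epithelial markers were positive in 8 of 9 (median 0.40), with sums of 252 to 428 and 477 to 559 FPKM that did not overlap, and macrophage markers in 8 of 9 (median 0.37), with sums of 420 to 551 and 345 to 1051 FPKM. Skin markers were positive in 3 of 3 tested (median 1.18) and skeletal muscle markers in 6 of 8 (median 0.14). Without M44176 skin markers were positive in 2 of 2 tested (median 0.91) and skeletal muscle markers in 1 of 7 (median -1.47). The skin marker Krtdap had a median of 1.23 and a maximum of 169 FPKM in knockouts. Endothelial markers were positive in 3 of 6 (median 0.02), luminal markers in 4 of 10 (median -0.03) and erythrocyte markers in 0 of 4 tested (median -0.60). Among all genes 51.8% were positive. None of the markers in these lists passed, and their part in the Ugp2 values was not tested.

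Slc35a2 encodes the transporter that brings UDP-galactose into the Golgi. It stood at 12.6, 14.99 and 9.01 FPKM in lactating controls and at 15.9, 13.5 and 11.9 FPKM in lactating knockouts (log2 difference 0.24 ± 0.27, limma adjusted p = 0.998), a difference that was 0.0057 without control M44175. At involution the controls stood at 11.9, 13.3 and 14.97 FPKM and the knockouts at 10.4, 9.504, 12.5 and 10.5 FPKM. Knockout M44176 reached into the control range and the other knockouts lay below it, with a log2 difference of -0.27 ± 0.14 (limma adjusted p = 0.856, unadjusted p = 0.0899).

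B4galt1 encodes the catalytic subunit of lactose synthase. At lactation it stood at 235 (M42186), 272 (M43768) and 289 FPKM (M44175) in controls and at 219 (M44174), 267 (M42734) and 199 FPKM (M43767) in knockouts. Those groups overlapped, with a log2 difference of -0.16 ± 0.27 (limma adjusted p = 0.998). At involution it stood at 94.0 (M44448), 98.4 (M43768) and 131 FPKM (M43914) in controls and at 71.6 (M43196), 89.3 (M43767), 68.2 (M44176) and 58.8 FPKM (M44440) in knockouts. Every knockout lay below every control, at 0.682 of the control level on the fitted scale. The log2 difference of -0.55 ± 0.20 did not pass over all genes (limma adjusted p = 0.645, unadjusted p = 0.0265). It was negative in all 15 alternative settings, from -0.66 (without knockout M43767) to -0.42 (without control M43914, where the unadjusted p was 0.0921 in limma). B4galt1 was the 1 member of 8 whose groups did not overlap in that direction, which held for 4.42% of the 12509 genes tested at involution. No member was higher in all knockouts than in all controls (2.67% of genes, or 7.09% in either direction). At lactation no member separated the genotypes, against 2.89% of 9560 genes with higher knockouts and 3.17% with lower ones, 6.06% in all. Luminal markers beside it summed to 1940 to 2452 FPKM in controls and 1627 to 2949 FPKM in knockouts at involution, with 6 of 10 negative and a median log2 difference of -0.03.

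Lalba, the partner of B4galt1 in lactose synthase, was spread widely within each group. It stood at 5949, 13675 and 24707 FPKM in lactating controls and 7529, 8903 and 11127 FPKM in lactating knockouts, in the order of libraries used above. At involution it stood at 4808, 11186 and 18392 FPKM in controls and at 15128, 5482, 17265 and 9413 FPKM in knockouts. The genotypes overlapped at both stages, with log2 differences of -0.41 ± 0.62 and 0.14 ± 0.57 (limma adjusted p = 0.998 for each).

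Over all 8 genes, no member passed the threshold at either stage. At lactation 1 of 9560 genes tested (0.0105%) and at involution 9 of 12509 (0.0719%) did so with limma, so that calls were rare over all genes too. All 8 passed the filter on low values (1 FPKM or more in 3 or more libraries). At an unadjusted p under 0.05 there were 0 members at lactation, against 2.38% of all genes, and 2 at involution, Ugp2 and B4galt1, against 6.84% of all genes. The median log2 difference of the members was 0.07 at lactation and -0.12 at involution, beside 0.01 over all genes tested at each stage. At lactation 6 members were positive and 2 negative, and without control M44175 the differences of Slc2a1, Slc5a1, Hk1, Hk2 and Gpi1 turned negative (-0.01 to -0.22), which left 1 member positive of 8. At involution 4 were positive and 4 negative, and 2 and 6 without knockout M44176. M44175 held the lowest Slc2a1, Hk1, Hk2, Gpi1 and Slc35a2 values of the lactating libraries and the highest Ugp2 and B4galt1 values.

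**Figure D2:**
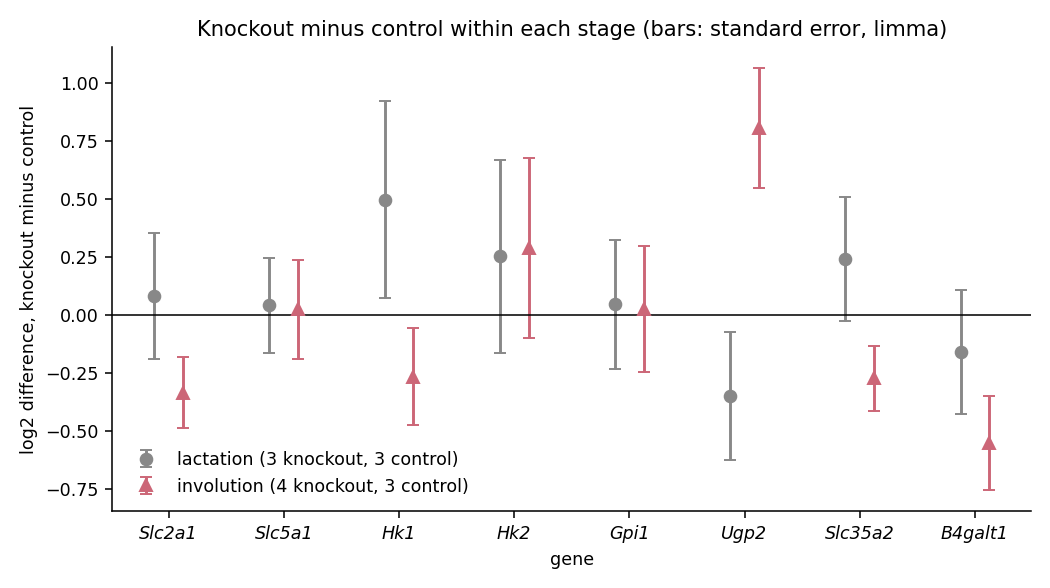
Log2 difference of knockout minus control (y axis) for each of the 8 genes (x axis) at lactation (grey circles) and involution (red triangles); bars are the standard errors of the limma fit. At involution Ugp2 is at 0.81 and B4galt1 at -0.55, and none of the 16 differences passes the adjusted threshold.

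Whether the knockout effect differed between the stages was tested with all 13 libraries in 1 model, as the effect at involution minus that at lactation. For Ugp2 it was 1.15 ± 0.38 on the log2 scale, made up of a negative difference at lactation and a positive one at involution (unadjusted p = 0.00970, limma adjusted p = 0.999). The other 7 members had values of -0.76 ± 0.49 (Hk1) to 0.03 ± 0.62 (Hk2), each with a limma adjusted p of 0.999. For B4galt1 it was -0.39 ± 0.29 and for Slc2a1 -0.42 ± 0.29. Without control M44175 the Hk1 value was -0.26 and the Slc2a1 value -0.19. No member passed, where 10 of 12667 genes (0.0789%) did. This fit treats libraries as independent, although the mouse numbers M43768 and M43767 stand at both stages in the labels. With the mouse number as a block 20 genes passed and again no member, with values of 0.87 ± 0.32 for Ugp2 and -0.10 ± 0.24 for B4galt1 (limma adjusted p = 0.442 and 0.955).

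The stages can only be set side by side. The deposited tables may have been normalized separately, and stage coincides with table, so these levels are described and not tested. The bulk of genes stood higher at involution: the median difference of log2(FPKM + 1) over 12667 genes was 1.06 in controls and 1.11 in knockouts, and all involution libraries lay above all lactation libraries for 73.3% and 80.1% of genes. Against this shift, B4galt1 went from a mean of 266 to 108 FPKM in controls and from 228 to 72.0 FPKM in knockouts, which is 2.46-fold and 3.17-fold lower. Slc2a1 went from 28.4 to 16.1 FPKM and from 28.3 to 12.2 FPKM, 1.76-fold and 2.31-fold lower. Both were lower in every involution library than in any lactation library of their genotype, as were 2.34% of all genes in controls and 2.44% in knockouts. Only 1.21% of genes in controls and 0.616% in knockouts had a more negative difference than B4galt1, and 2.19% and 1.17% a more negative one than Slc2a1.

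In the other direction, Gpi1 was 3.58-fold higher at involution in controls and 3.77-fold in knockouts, and Hk1 4.26-fold and 2.62-fold. Relative to the median gene the log2 difference of Gpi1 was 0.75 and 0.72, and that of Hk1 0.94 and 0.15. Slc5a1, Hk2 and Slc35a2 overlapped between the stages in both genotypes, with differences of -0.33 to 0.15, which is 0.92 to 1.44 below the median gene. Ugp2 overlapped between stages in controls (0.14, or 0.93 below the median gene) and was higher at involution in the knockouts (1.33, or 0.22 above it). In all, 4 of 8 members did not overlap between stages in controls, 2 higher and 2 lower, and 5 in knockouts, 3 higher and 2 lower, against 75.6% and 82.6% of all genes.

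The scale of the libraries decides part of this picture. With 1 set of median-of-ratios factors over all 13 libraries, which moved the median gene to 0.17 in controls and 0.19 in knockouts, 5 members did not overlap in controls, all 5 lower at involution, and 6 in knockouts, 1 higher (Gpi1) and 5 lower. On that scale 41.9% of all genes did not overlap in controls (27.0% higher at involution, 14.9% lower) and 47.1% in knockouts (29.2% higher, 17.9% lower). With quantile normalization over the 13 libraries 6 members did not overlap in each genotype, all 6 lower in controls, and 1 higher and 5 lower in knockouts. The shares of all genes were then 40.0% in controls (19.7% higher, 20.3% lower) and 45.5% in knockouts (20.1% higher, 25.4% lower). With the median-of-ratios factors B4galt1 was 5.92-fold and 7.71-fold lower at involution in controls and knockouts and Slc2a1 4.32-fold and 5.66-fold lower. Slc5a1 and Slc35a2 were also lower in both genotypes, at 2.28-fold and 2.30-fold for Slc5a1 and 2.22-fold and 3.13-fold for Slc35a2. Ugp2 was lower by 2.17-fold in controls and overlapped between stages in knockouts. Hk2 was lower by 2.66-fold in knockouts, and in controls its mean was 3.18-fold lower with the stages overlapping. Hk1 overlapped between stages in both genotypes and Gpi1 in controls.

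**Figure D3:**
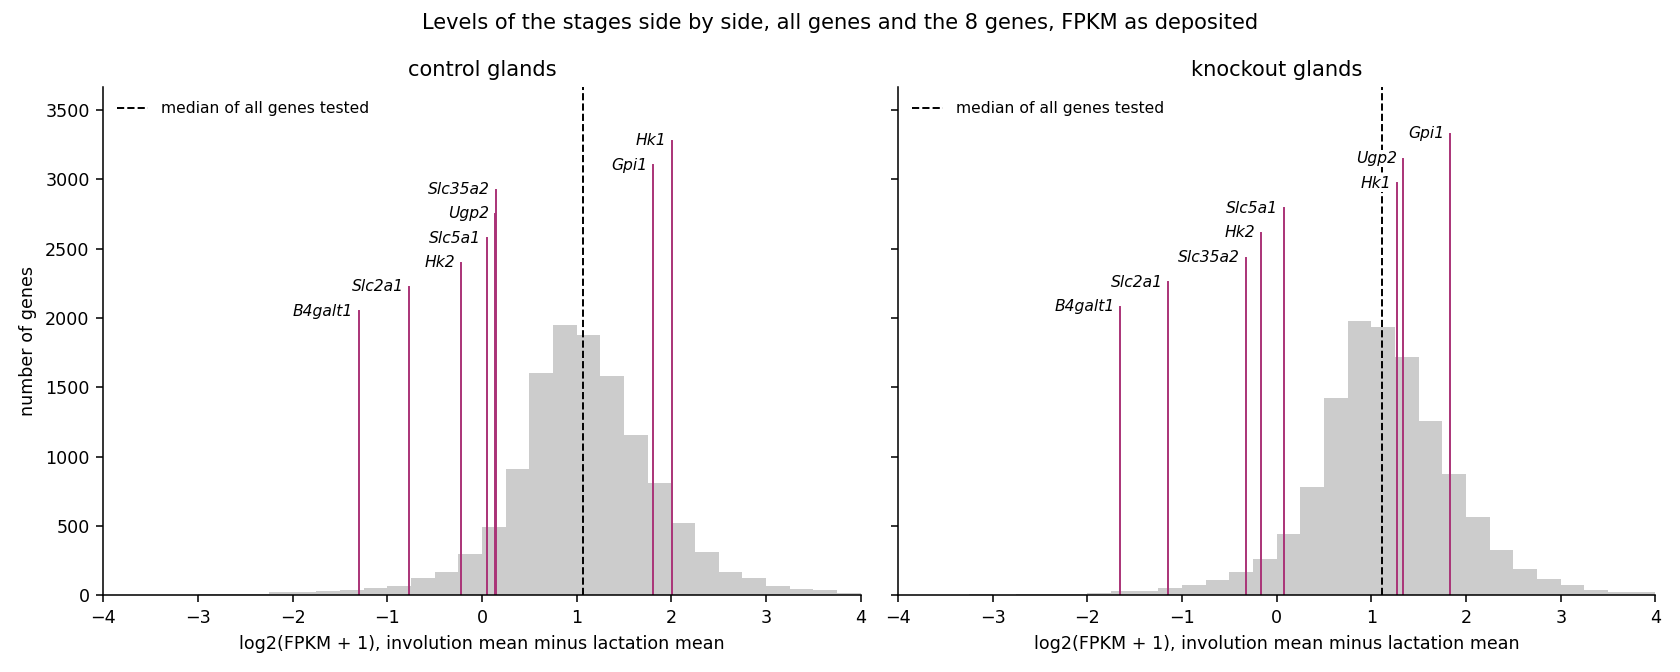
Histograms of the difference between the stages, involution mean minus lactation mean of log2(FPKM + 1) (x axis), over 12667 genes (y axis, number of genes) in controls (left) and knockouts (right), with the 8 genes as labelled lines whose heights carry no value and the median gene as a dashed line. B4galt1 and Slc2a1 lie in the left tail in both panels, and Ugp2 lies left of the median in controls and right of it in knockouts.

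Ratios of a pair of these genes within a library do not depend on the library's scaling; the pairs were chosen after the values were seen. The GLUT1 to SGLT1 transcript ratio, Slc2a1 over Slc5a1, was 1.84 to 2.60 in lactating controls and 2.18 to 2.65 in lactating knockouts, and 1.096 to 1.47 and 0.898 to 1.104 at involution. Hk2 over Hk1 was 0.858 to 1.01 in lactating controls and 0.408 to 1.13 in lactating knockouts, with knockout M44174 alone under 0.858. At involution it was 0.132 to 0.202 in controls and 0.105 to 0.380 in knockouts, with Hk1 in excess in all 7 libraries. B4galt1 over Slc35a2 was 18.2 to 32.1 and 13.7 to 19.7 at lactation and 7.38 to 8.75 and 5.45 to 9.39 at involution. These 3 ratios did not overlap between stages in either genotype. Because the pairs were picked from these same values, this is a description only, and the share over all pairs of genes was not computed. Ugp2 over Gpi1 did not overlap between stages in controls (1.03 to 3.39 and 0.323 to 0.938) and overlapped in knockouts (1.18 to 1.63 and 0.754 to 1.45).

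**Figure D4:**
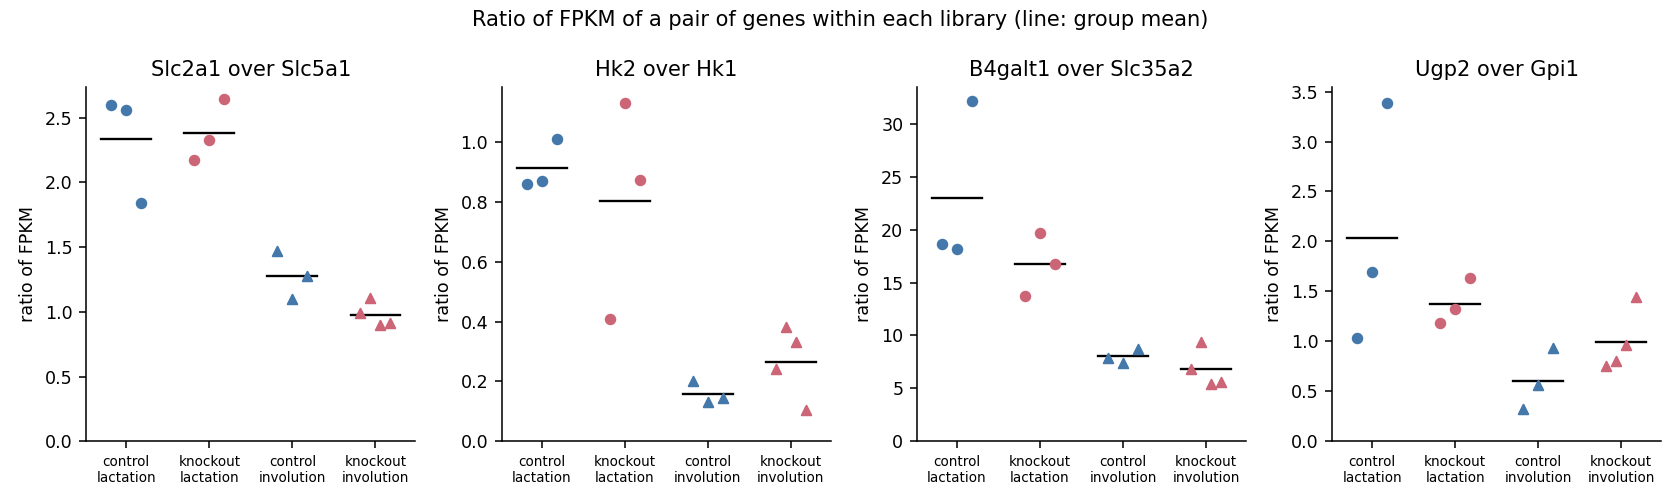
Ratio of FPKM of a pair of genes within each library (y axes, linear, from 0) by group on the x axis; blue points are controls, red points knockouts, circles lactation, triangles involution, and lines group means. Slc2a1 over Slc5a1, Hk2 over Hk1 and B4galt1 over Slc35a2 lie lower in all involution libraries than in all lactation libraries of the same genotype. The pairs were chosen after the values were seen.

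The neighbouring pathways were read from 9 gene lists, and no listed gene passed the threshold at lactation or involution (limma, adjusted p of 0.546 or more). At an unadjusted p under 0.05 there was 1 of 81 tested genes of these lists at lactation and 5 of 91 at involution, near or below the shares of 2.38% and 6.84% over all genes. Some genes named below have their groups apart, meaning no overlap of knockouts and controls. Over all genes this held for 6.06% at lactation and 7.09% at involution in either direction. Most of the genes below were named for a small p, so their separation is not a result about the lists. Of 15 partners of lactose synthesis (Lalba, sugar nucleotide enzymes and Golgi helpers), all were tested, with a median log2 difference of -0.08 at lactation (5 positive) and 0.02 at involution (10 positive). Without control M44175 the lactation median was 0.11, with 12 of 15 positive. The smallest unadjusted p belonged to the phosphoglucomutase gene Pgm2 at lactation (5.92 ± 2.81 and 8.71 ± 0.199 FPKM in controls and knockouts, groups apart) and to Galt, whose enzyme forms UDP-galactose from galactose 1-phosphate and UDP-glucose (2.91 ± 0.651 and 3.83 ± 0.656 FPKM). At involution it was Ugdh, which oxidizes UDP-glucose (9.30 ± 0.510 and 11.96 ± 1.92 FPKM), and Pgm1 (8.11 ± 1.84 and 6.63 ± 0.388 FPKM).

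Of 17 other sugar transporters of the SLC2 and SLC5 families, 4 were tested at lactation and 6 at involution, the rest being below the filter. Slc2a4, which encodes the insulin-responsive GLUT4 of fat and muscle, stood at 2.24 ± 0.429 and 5.23 ± 1.93 FPKM in lactating controls and knockouts (groups apart, log2 difference 0.95 ± 0.29, limma adjusted p = 0.998) and at 12.1 ± 4.10 and 18.5 ± 7.57 FPKM at involution. It is also 1 of the 10 adipocyte markers, whose log2 differences had a median of 0.91 at lactation and which summed there to 821 to 2781 FPKM in controls and 1492 to 2272 FPKM in knockouts. Slc2a9, a urate and hexose carrier, stood at 6.15 ± 0.814 and 7.46 ± 1.12 FPKM at lactation, and Slc5a9 at 5.24 ± 1.33 and 3.47 ± 0.860 FPKM at involution. The hexokinase gene Hk3 passed the filter at involution, where it stood at 1.52 ± 0.536 and 1.69 ± 0.305 FPKM.

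Among 12 other carriers of the SLC35 family, most of them transporters of nucleotide sugars, 11 were tested at lactation and 12 at involution, with medians of 0.03 and -0.07. Without control M44175 the lactation median was 0.12 (8 of 11 positive), and without knockout M44176 the involution median was -0.14 (3 of 12 positive). At involution Slc35b1 stood at 75.8 ± 26.9 FPKM in controls and 47.9 ± 5.45 FPKM in knockouts, groups apart, and Slc35a3, a carrier of UDP-N-acetylglucosamine, at 8.04 ± 3.603 and 5.08 ± 1.64 FPKM. At lactation Slc35b4 stood at 1.40 ± 0.534 and 2.14 ± 0.502 FPKM and Slc35a4 at 9.27 ± 3.83 and 11.1 ± 1.104 FPKM. Of 6 other beta-1,4-galactosyltransferases 3 were tested at lactation and 6 at involution. The most abundant of them at involution, B4galt3 (named for its level, after its values were seen), stood at 31.8 ± 1.87 and 27.7 ± 7.96 FPKM, below B4galt1 in every library. B4galt2 stood at 1.17 ± 0.363 and 2.12 ± 0.322 FPKM at involution, groups apart and on the opposite side from B4galt1 (log2 difference 0.54 ± 0.17, limma adjusted p = 0.559). B4galt7, which acts on proteoglycan linkers, stood at 8.80 ± 1.57 and 6.75 ± 1.57 FPKM at involution and 5.43 ± 0.862 and 4.47 ± 0.807 FPKM at lactation, and B4galt4 at 1.35 ± 0.556 and 1.68 ± 0.167 FPKM at lactation.

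Of the glycolytic genes below Gpi1, 14 of 15 tested had a positive log2 difference at lactation, with a median of 0.38, against 51.2% positive among all genes. Without control M44175 it was 10 of 13, with a median of 0.10. At involution 10 of 16 were positive with a median of 0.16, and without knockout M44176 5 of 16 with a median of -0.23. The lactate dehydrogenase gene Ldhb stood at 21.9 ± 8.31 and 32.4 ± 12.5 FPKM and the aldolase gene Aldoa at 113 ± 17.5 and 156 ± 57.0 FPKM at lactation. At involution the phosphofructokinase gene Pfkp stood at 6.22 ± 1.52 and 9.05 ± 0.598 FPKM, groups apart, and the pyruvate kinase gene Pkm at 375 ± 57.9 and 250 ± 73.3 FPKM. All 7 genes of the pentose phosphate pathway were tested, 5 positive at lactation (median 0.29, or 0.05 without control M44175) and 3 at involution (median -0.06, or -0.13 without knockout M44176). Among them, Tkt, transketolase, stood at 93.7 ± 23.8 and 122 ± 5.77 FPKM at lactation with the groups apart, Rpia at 8.30 ± 1.33 and 9.88 ± 0.698 FPKM at lactation and 20.5 ± 5.03 and 23.0 ± 4.12 FPKM at involution, and Pgd at 162 ± 58.9 and 136 ± 49.9 FPKM at involution.

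Glycogen genes, which draw on the same UDP-glucose, were positive in 7 of 7 tested at lactation (median 0.30) and in 8 of 8 at involution (median 0.34), against 51.2% and 51.8% of all genes. Without control M44175 they were positive in 6 of 6 at lactation (median 0.19), but without knockout M44176 in 3 of 8 at involution (median -0.02). Gyg, glycogenin, the primer of glycogen, stood at 33.5 ± 1.83 FPKM in controls and 60.5 ± 24.6 FPKM in knockouts at involution, groups apart (log2 difference 0.78 ± 0.28, limma adjusted p = 0.637). Gys1, glycogen synthase, stood at 11.6 ± 3.59 and 16.5 ± 5.64 FPKM at involution and 2.48 ± 0.640 and 3.53 ± 0.717 FPKM at lactation, and the branching enzyme gene Gbe1 at 3.42 ± 0.352 and 4.24 ± 0.0826 FPKM at lactation, groups apart. M44176 held the most skeletal muscle and adipocyte RNA of the involution libraries. The 8 skeletal muscle markers summed to 68.5 to 1058 FPKM in controls and 42.6 to 3744 FPKM in knockouts at involution and to 1.49 to 184 and 0.784 to 704 FPKM at lactation, and their part was not tested. Among 20 regulators of glucose uptake and lactation, 19 were tested at lactation and 20 at involution, with medians of 0.11 and -0.03. These became -0.04 without control M44175 (8 of 19 positive, against 11 with it) and -0.07 without knockout M44176. Prlr, the prolactin receptor gene, stood at 8.50 ± 1.08 FPKM in controls and 5.95 ± 0.446 FPKM in knockouts at involution, groups apart (log2 difference -0.43 ± 0.13, limma adjusted p = 0.546). Prlr is also among the 10 luminal markers given above. The hypoxia factor gene Hif1a stood at 11.4 ± 1.47 and 13.6 ± 1.37 FPKM at involution. At lactation Mlxipl, which encodes the glucose-responsive factor ChREBP, stood at 0.926 ± 0.116 and 1.48 ± 0.573 FPKM and the kinase gene Pdpk1 at 2.90 ± 0.192 and 3.37 ± 0.282 FPKM.

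**Figure D5:**
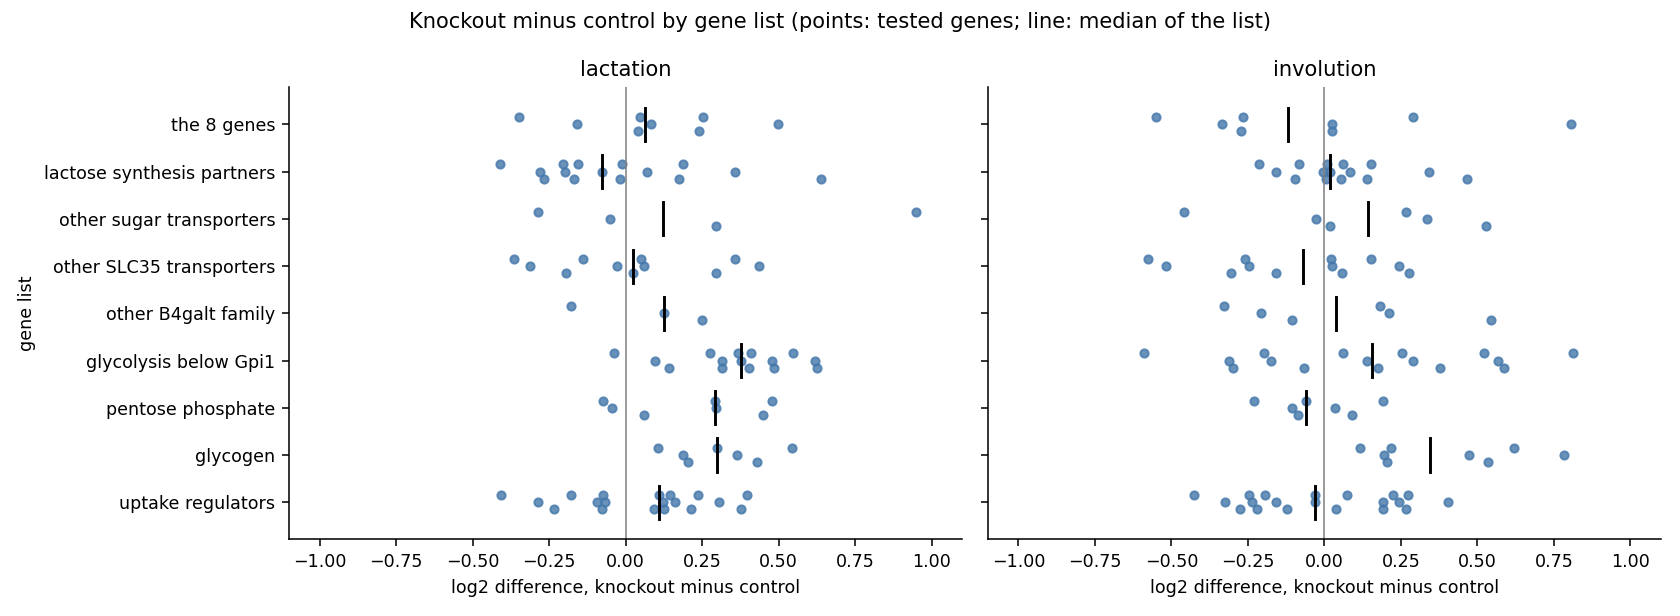
Log2 difference of knockout minus control (x axis) for each tested gene of the 8-gene set and of 8 neighbouring lists (y axis) at lactation (left) and involution (right), with the median of each list as a line. Glycogen genes lie right of 0 in both panels (3 of 8 do at involution without knockout M44176), and no point passes the adjusted threshold.

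The genes whose levels moved most like 3 of the members were sought among 7733 genes that reached 1 FPKM in all 13 libraries, after the mean of each group was taken off. Over the 13 libraries Slc2a1 was followed most closely by Tmem63b, Actr2 and Tspyl1, with Pearson coefficients of 0.948, 0.945 and 0.937. Hk2 was followed by Ywhag, Por and Lpin1 (0.958, 0.956 and 0.951) and B4galt1, less closely, by Cdc42se2, Zfp217 and Fads1 (0.813, 0.786 and 0.785). Without M44175 the coefficients were 0.887 to 0.905 for Slc2a1, 0.935 to 0.957 for Hk2 and 0.787 to 0.820 for B4galt1. They are the extremes of a search over libraries that also share depth and tissue makeup, and are given as a description.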

How the data were processed

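Per the labels' protocols, total RNA was purified on RNeasy columns and TruSeq RNA libraries were read on an Illumina HiSeq2000. The submitters' processing notes name CASAVA, cutadapt and TopHat and build mm9; the sources used here give neither versions nor the program behind the FPKM. The deposited FPKM tables, 1 per stage, were used as they are for printed levels, means and SD. Exact zeros entered as values. Groups came from the library titles, and libraries within a stage carry different mouse numbers.

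Within each table FPKM were divided by median-of-ratios factors (0.954 to 1.12 at lactation, 0.980 to 1.02 at involution) and transformed to log2(value + 1), which understates changes of low genes. limma 3.58.1 in R 4.3.3 (trend, two-sided, no covariates) was run on genes reaching 1 FPKM in 3 or more of the libraries fitted; p-values were adjusted by Benjamini-Hochberg over all of them, with 0.05 as threshold. The fit was also run on simulated data, with planted changes larger than any member difference within a stage. That run does not show how often differences of the size seen within a stage would pass. Errors beside log2 differences are SE. Relative depth was read from the ratios at which values under 0.3 FPKM pile up. Promoters are RefSeq, build GRCm38.p6, and all 8 members matched by symbol; coordinates were not joined to the mm9 tables.

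Members and lists were chosen with earlier results of these data known. Named beside the members were Lalba, in each pathway list the 2 genes with the smallest unadjusted p at each stage, and the 3 genes most like Slc2a1, Hk2 and B4galt1. Alternatives were other scalings, a pseudocount of 0.1, no filter, robust empirical Bayes, array weights, a joint fit, genes listed at 0 in a whole group left out, and each library left out in turn. List counts without M44175 or M44176, and a fit of the difference of effects with the mouse number as a block, were added after seeing the data.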

Additional observations from a re-analysis of the deposited data

How the results depend on the processing

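No member passed the threshold in any alternative: 14 settings at lactation, 15 at involution and 22 for the difference of effects, with adjusted p of at least 0.445, 0.375 and 0.367. Ugp2 and B4galt1 kept their sign in all of them. The sign turned in 9 of 112 member values at lactation, 9 of 120 at involution and 23 of 176 for the difference, and the cause was not tested. At lactation it turned with deposited FPKM for Slc5a1 and Gpi1 (-0.0186 and -0.0171) and with array weights for Gpi1 and Slc35a2 (-0.14 and -0.11). Leaving out single libraries there gave -0.15 to 0.29 for Slc2a1, -0.0310 to 0.16 for Slc5a1, -0.0077 to 0.83 for Hk1, -0.19 to 0.54 for Hk2 and -0.22 to 0.23 for Gpi1, each turned by control M44175 alone. At involution it turned with quantile normalization for Gpi1 (-0.0327) and with array weights for Slc5a1 and Gpi1 (-0.0873 and -0.0464), and leaving out single libraries gave -0.19 to 0.14 for Slc5a1 and -0.16 to 0.17 for Gpi1. The difference of effects turned with deposited FPKM for Slc5a1 and Gpi1 (0.0190 and 0.0177), with a pseudocount of 0.1 for Hk2 (-0.0167), with array weights for Gpi1 (0.10) and with factors over 13 libraries for Hk2 (-0.0041). Leaving out single libraries gave -0.23 to 0.10 for Slc5a1, -0.26 to 0.48 for Hk2 and -0.21 to 0.24 for Gpi1.

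Counts over all genes moved as follows. At lactation, where 1 gene passed, the number was 2 with a pseudocount of 0.1, 9 with array weights, 0 without genes listed at 0 in a whole group (limma, with 226 genes at an unadjusted p under 0.05), 2 in the joint fit and 0 to 3 without single libraries. At involution, where 9 passed, it was 14 with robust empirical Bayes, 20 with array weights, 1 without genes listed at 0, 27 in the joint fit and 2 to 9 without single libraries. For the difference of effects, where 10 passed, it was 16 with array weights, 1 without genes listed at 0 and 6 to 12 without single libraries. Members that did not overlap between stages numbered 4 to 5 in controls and 5 to 6 in knockouts without single libraries, and 6 in each with quantile normalization over 13 libraries. Leaving out a library can only narrow a range, so the counts without single libraries could not fall below 4 and 5. Control and knockout libraries of a stage share no mouse number, so within a stage no paired analysis was run. For the difference of effects a replicate block on the mouse number, added after seeing the data, rested on the 2 of 11 numbers that stand at both stages (estimated correlation 0.70) and gave 20 genes. Relative depth was lowest in knockout M43196 (0.485), and without counts no counting interval can be given for low genes such as Hk2.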
